A study of Homo sapiens with 18 samples.

Results

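The EGR genes EGR1, EGR2, EGR3 and EGR4 encode zinc finger transcription factors, and this family was followed in SKOV-3 cells, an established line from a human ovarian carcinoma, with Affymetrix U133 Plus 2.0 arrays. Its members were taken as all probe sets, the units of probes that report a transcript on the array, annotated to 1 of these symbols. These were 7 probe sets of 54613, with 3 for EGR1, 1 for EGR3 and 3 for EGR4, so that 3 genes of 19775 were followed. EGR2 has no probe set in the annotation used and was not analysed here. The paper itself lists EGR2, beside EGR3, among genes higher after 1 h of luteinizing hormone. The family was chosen by earlier results of these same data, so its levels and differences are given as a description. No p is printed for its members, and whether one met the thresholds applied to all probe sets is stated as part of that description.

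The 18 arrays fell into 6 groups of 3. LHR- cells carry no introduced receptor and received no LH. They are described in one place of the study as the parent line and in another as mock-transfected. LHR+ cells had been stably transfected to express the luteinizing hormone (LH) receptor, and 1 group of them received no LH. The other groups, LH1, LH4, LH8 and LH20, were LHR+ cells incubated with LH at 50 ng/ml for 1, 4, 8 or 20 h. The design calls the replicates independent. As the LHR+ cells without LH were taken as 1 group, LH and time in culture cannot be told apart, nor can receptor expression and transfection or selection between LHR- and LHR+ cells. The array has 1 probe set for LHCGR, the receptor gene, with group means between 0.299 and 2.17, near the bottom of the scale in all groups, so it gives no check of the labels. Epithelial ovarian carcinoma markers (ERBB2, KRT8, KRT18, KRT19 and PAX8) had group means between 1918 and 7675, whereas those of leukocytes, endothelium and hepatocytes (PTPRC, CD3E, PECAM1, CDH5 and ALB) had group means between 1.04 and 31.1. Array medians lay between 46.7 and 57.7, and 15 of the 18 arrays had their nearest array in their own group. In cultures measured as a whole, a smaller number of cells with a transcript and less of it per cell cannot be told apart.

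EGR genes are classic immediate-early genes, whose transcription starts within minutes of a stimulus without new protein synthesis and usually ceases soon after. Growth factor signals reach EGR1 through ERK kinases and the ternary complex of serum response factor (SRF) with ELK proteins at CArG boxes of its promoter, and cAMP signals act through CREB at cAMP response elements (CRE). The EGR proteins bind GC-rich sites, and the corepressors NAB1 and NAB2 hold them in check, NAB2 being itself an EGR-inducible gene. In ovarian follicles, the LH surge induces EGR1 in granulosa cells, where the LH receptor signals mainly through cAMP.

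The 250 bases before the transcription start of EGR1 and EGR4 are shown, as they were searched for CArG boxes and CRE sites. They were taken from RefSeq on GRCh38.p14, at chr5:138465229-138465478 on the + strand for EGR1 and at chr2:73293549-73293798 on the - strand for EGR4. Both are written 5′ to 3′ on the gene's strand. Capitals mark matches to the CArG box or to the CRE core CGTCA, searched on both strands.
EGR1: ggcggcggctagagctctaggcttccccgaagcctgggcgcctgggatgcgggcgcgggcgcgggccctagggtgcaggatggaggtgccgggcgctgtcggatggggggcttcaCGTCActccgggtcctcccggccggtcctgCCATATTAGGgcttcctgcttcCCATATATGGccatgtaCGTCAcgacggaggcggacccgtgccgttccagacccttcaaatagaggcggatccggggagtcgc
EGR4: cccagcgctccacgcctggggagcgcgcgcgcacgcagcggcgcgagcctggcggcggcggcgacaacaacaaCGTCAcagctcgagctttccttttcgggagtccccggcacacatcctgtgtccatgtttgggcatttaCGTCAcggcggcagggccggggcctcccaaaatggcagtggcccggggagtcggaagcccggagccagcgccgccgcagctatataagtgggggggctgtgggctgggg
EGR1 had 2 CArG boxes, CCATATTAGG at positions -105 to -96 and CCATATATGG at -83 to -74 from the start, and they lay between CRE core sites at -135 to -131 and -66 to -62. EGR4 had core sites at -177 to -173 and -109 to -105 and no CArG box. Neither window held the full CRE TGACGTCA, which contains the core, or the EGR site GCGTGGGCG. Of 35116 such windows of all listed genes, 1.16% held a CArG box, 21.2% a CRE core site, 1.65% the full CRE and 0.72% the EGR site. At least 2 CArG boxes, as in EGR1, were present in 11 windows (0.0313%), and at least 2 CRE core sites in 4.76%. These matches are letters in a sequence, and no binding was measured.

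**Figure D1:**
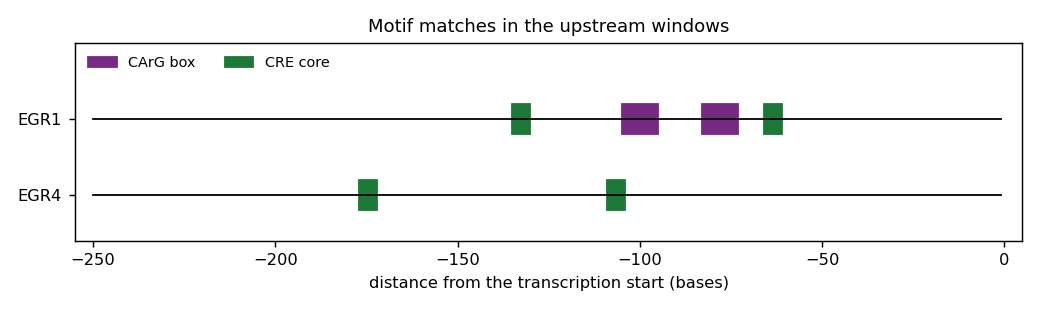
Positions of the CArG boxes (purple) and CRE core sites (green) in the 250 bases before the transcription start of EGR1 and EGR4, with the distance from the start in bases on the x axis. In EGR1 both CArG boxes lie between the CRE core sites, and EGR4 has core sites only.

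EGR1, the best studied member, stood near the top of the array's range on 2 of its probe sets after 1 h of LH and lay below the LH-free level on them at all later times. On probe set 201694_s_at, the intensities were 2133, 2018 and 2071 in LHR- cells and 946, 949 and 766 in LHR+ cells. After LH they were 7257, 6952 and 7318 at 1 h and 353, 287 and 244 at 4 h. They were 205, 136 and 157 at 8 h and 408, 339 and 315 at 20 h. The LH1 arrays thus lay above all others, and the LH4, LH8 and LH20 arrays all lay below the LHR+ arrays. The group means were 2074 ± 57.5 (SD, n = 3) in LHR- cells, 887 ± 105 in LHR+ cells, 7176 ± 196 at LH1, 294 ± 55.1 at LH4, 166 ± 35.4 at LH8 and 354 ± 48.1 at LH20. In LHR+ cells the level was 2.35-fold lower than in LHR- cells. Against LHR+ cells it was 8.12-fold higher at LH1, and 3.03-, 5.36- and 2.51-fold lower at LH4, LH8 and LH20. These folds are ratios on the log2(value + 1) scale, on which the differences were -1.23 for LHR+/LHR- and 3.02, -1.60, -2.42 and -1.33 for the LH times, each with a standard error of 0.17.

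Probe set 227404_s_at, with the highest mean intensity of the EGR1 probe sets, gave the same order of groups. Its intensities were 2399, 2382 and 2886 in LHR- cells and 1445, 1368 and 1417 in LHR+ cells. With LH they were 10215, 7560 and 11119 at LH1 and 409, 348 and 383 at LH4. They were 288, 300.5 and 316 at LH8 and 554, 507 and 485 at LH20. No group overlapped another on this probe set. Its group means were 2556 ± 286 (SD, n = 3) in LHR- cells, 1410.0 ± 38.8 in LHR+ cells, 9631 ± 1850 at LH1, 380.2 ± 30.6 at LH4, 302 ± 14.1 at LH8 and 515 ± 35.3 at LH20. The log2 difference was 2.75 at LH1, -1.89 at LH4, -2.22 at LH8 and -1.45 at LH20 against LHR+ cells, and -0.85 between LHR+ and LHR- cells, each with a standard error of 0.14. The LH1 value was 2.92 without LH1 replicate 2, the array with 7560.

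In both probe sets the order from high to low was LH1, LHR-, LHR+, LH20, LH4 and LH8. Only LH20 and LH4 overlapped among neighbours in this order, and only on 201694_s_at. From LH1 to LH4 the log2 difference was -4.62 on 201694_s_at and -4.64 on 227404_s_at, which is 24.6- and 25.0-fold. From LH8 to LH20 the level was higher again on all arrays, by 1.10 and 0.77, without reaching that of LHR+ cells. Relative to LHR- cells, LH1 was 3.46- and 3.73-fold higher and LH8 12.6- and 8.42-fold lower. Among all probe sets of an array, 227404_s_at stood between the 86.3 and 86.9 percentile in LHR+ cells, between 99.0 and 99.5 at LH1, and between 69.7 and 70.8 at LH8. Over the 18 arrays both probe sets had a Pearson correlation of 0.991, which is a description of probe sets that share RNA, arrays and gene.

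The third EGR1 probe set, 201693_s_at, was dim outside LH1. Its intensities were 13.8, 23.4 and 38.5 in LHR- cells and 1.18, 13.6 and 8.37 in LHR+ cells. At LH1 they were 378, 381 and 390, and at LH4 11.2, 4.32 and 0.801. They were 1.78, 1.18 and 7.42 at LH8 and 9.87, 13.9 and 1.41 at LH20. The LH1 arrays again stood apart from all others, while LHR+, LH4, LH8 and LH20 overlapped each other, so that the lower level after 1 h was not seen on this probe set. Its log2 difference at LH1 was 5.84 with a standard error of 0.87. It was 5.04 without LHR+ replicate 1, the array at 1.18, and 4.11 with a pseudocount of 16 in place of 1, so the size of this difference depends on LHR+ values near the bottom of the scale.

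**Figure D2:**
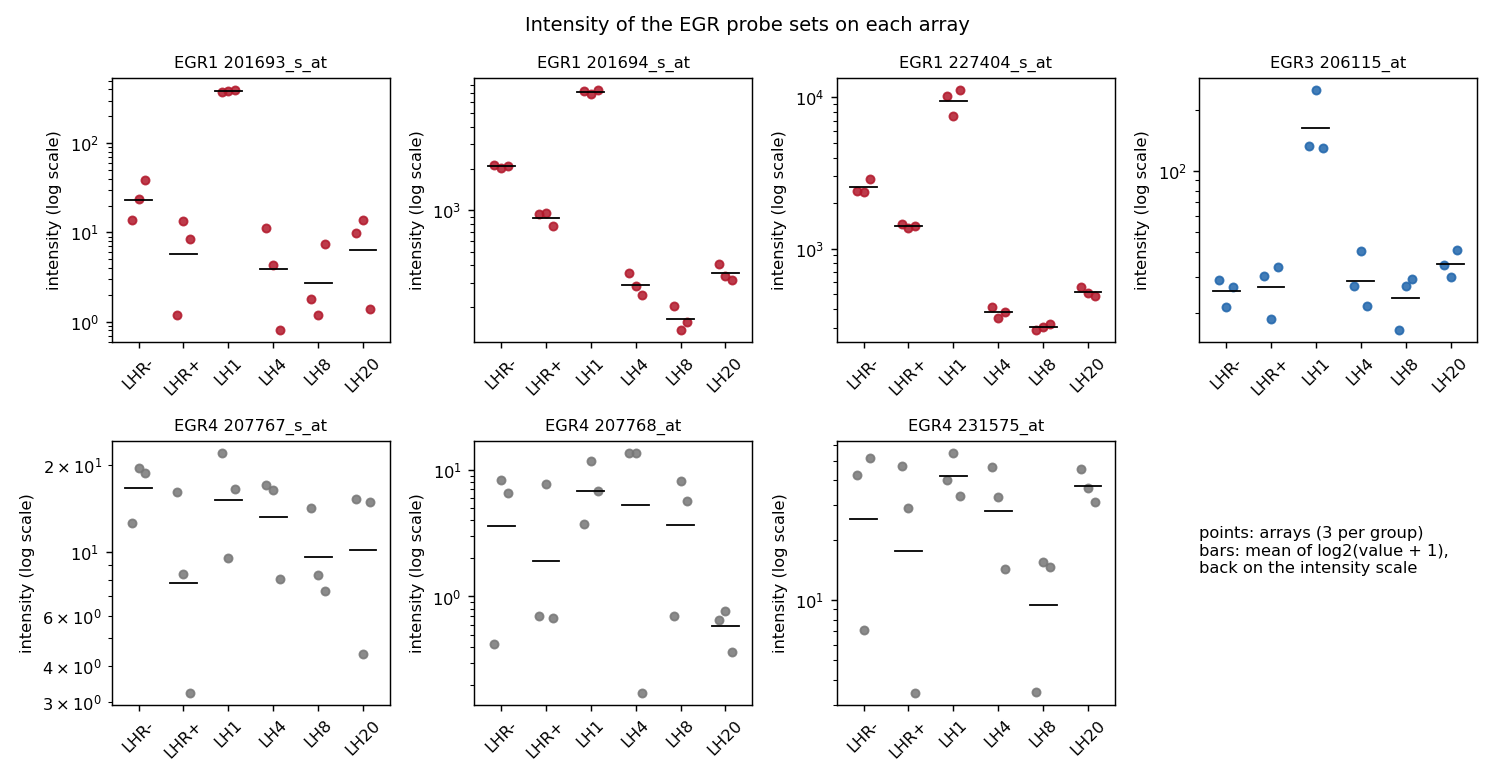
Intensity of each of the 7 EGR probe sets on each of the 18 arrays (points, logarithmic y axes that differ between panels), by group on the x axis. Bars are the mean of log2(value + 1) of 3 arrays, put back on the intensity scale. The LH1 arrays stand above all others in the EGR1 and EGR3 panels, and the EGR4 panels show overlapping groups.

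EGR3, a close relative that takes part in muscle spindle development and lymphocyte anergy, was above its LHR+ level after 1 h of LH only. The intensities of its probe set 206115_at were 28.9, 21.5 and 26.8 in LHR- cells and 30.5, 18.7 and 33.8 in LHR+ cells. At LH1 they were 133, 249 and 129, and at LH4 27.1, 40.4 and 21.7. They were 16.4, 27.3 and 29.5 at LH8 and 34.6, 30.2 and 40.6 at LH20. All LH1 arrays lay above all other arrays, and each other group overlapped its neighbour in the order LH20, LH4, LHR+, LHR- and LH8. The LH20 arrays all lay above the LH8 and LHR- arrays, with log2 differences of 0.54 and 0.43. Between LH8 and LH20, 30.1% of all probe sets had triplicates that did not overlap, in either direction, so nothing is read from this. The mean was 27.7 ± 7.97 (SD, n = 3) in LHR+ cells and 171 ± 68.0 at LH1, 5.88-fold higher on the log2(value + 1) scale. The log2 differences against LHR+ cells were 2.56, 0.10, -0.17 and 0.37 at LH1, LH4, LH8 and LH20, and that of LHR+ against LHR- cells was 0.07, with a standard error of 0.32. With a pseudocount of 16, the LH1 value was 2.05. The lower level at 4 to 20 h on the brighter EGR1 probe sets was thus not seen for EGR3. It was also not seen on the dim EGR1 probe set, and the LH-free intensity of EGR3 stood between the 37.0 and 44.5 percentile of the arrays. A fall of EGR3 could be missed at such intensities, so no difference between the genes at these times is read from this. The correlation of EGR3 with the EGR1 probe sets over 18 arrays was 0.697 to 0.794.

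EGR4, known mainly from neurons and germ cells, was dim throughout. Its probe sets ranged from 3.23 to 22.0 (207767_s_at), from 0.173 to 13.5 (207768_at) and from 3.43 to 54.5 (231575_at) over the 18 arrays, and none exceeded the 50.1 percentile of an array. At LH1 the log2 differences were 0.88 (standard error 0.53), 1.42 (standard error 1.03) and 1.20 (standard error 0.87) in the same order. The triplicates overlapped in each of these and in all other comparisons of an LH time with LHR+ cells. Between consecutive times, 231575_at was higher on all LH20 arrays (37.7 ± 7.31, SD, n = 3) than on all LH8 arrays (11.2 ± 6.72), a log2 difference of 1.87. Of all probe sets, 30.1% had triplicates that did not overlap between these times, in either direction. The EGR4 probe sets correlated with each other by only 0.214 to 0.379. Single arrays moved the EGR4 differences at LH1, with 0.17 for 231575_at without LHR+ replicate 3, 1.89 without LHR+ replicate 1, and 2.20 for 207768_at without LHR+ replicate 2.

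**Figure D3:**
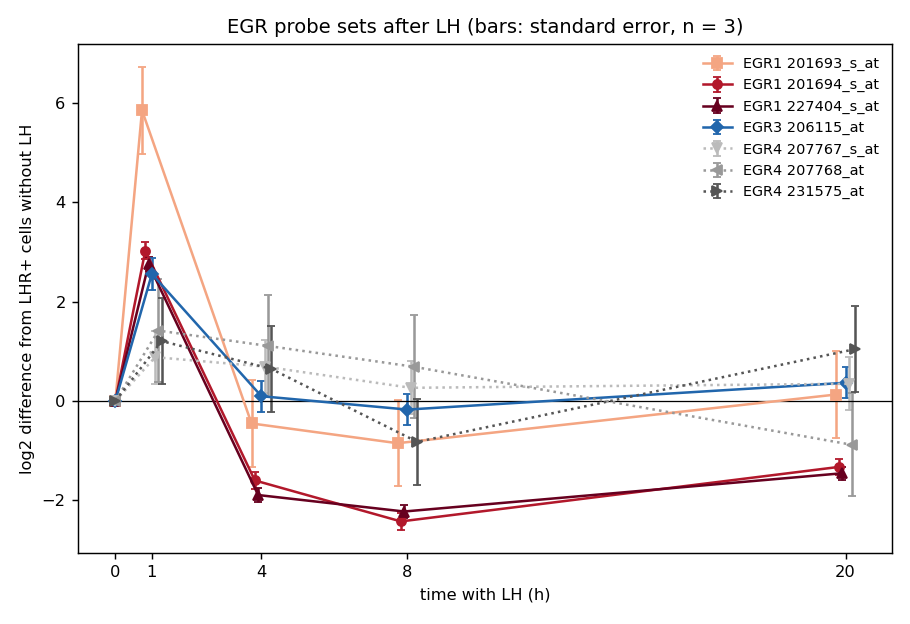
Log2 difference of each EGR probe set from LHR+ cells without LH (y axis) against the time with LH in hours (x axis). Bars are standard errors from the fit of all groups, n = 3 arrays. EGR1 201694_s_at goes from 3.02 at 1 h to -2.42 at 8 h, EGR3 from 2.56 to -0.17, and the EGR4 lines (grey, dotted) have the widest bars of the family beside EGR1 201693_s_at.

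A call needed p under 0.05, a Benjamini-Hochberg adjusted p under 0.1 from limma, a fold of at least 2 and triplicates that did not overlap. Of the 7 EGR probe sets, 4 met it upward at LH1, namely the 3 of EGR1 and that of EGR3, beside 0.443% of all 54613 probe sets. With only LHR+ and LH1 arrays in the fit, EGR1 201694_s_at and 227404_s_at met it and 201693_s_at and EGR3 did not. Probe sets 201694_s_at and 227404_s_at met it downward at LH4, LH8 and LH20, beside 0.623%, 0.632% and 3.42% of all probe sets. Downward between LHR- and LHR+ cells, 201694_s_at met it (all probe sets, 1.52%), and 227404_s_at missed the fold with 1.81-fold. Between consecutive times, the 4 probe sets met it downward from LH1 to LH4 (all probe sets, 0.787%) and 201694_s_at upward from LH8 to LH20 (2.26%). These comparisons share arrays and contributed to the choice of the family, so nothing is read from the counts.

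Genes that act on or with EGR1 were then examined with tests, adjusted over all probe sets, in a list of 14 regulators and corepressors. NAB2, the inducible corepressor, was higher at 4 h on its brightest probe set, and an action of EGR1 on NAB2 was not tested. Its intensity was 329.7 ± 16.3 (SD, n = 3) in LHR+ cells, 281 ± 17.1 at LH1, 674 ± 109 at LH4, 396 ± 26.2 at LH8 and 543 ± 50.8 at LH20. All LH4 arrays lay above all LHR+ arrays, and the log2 difference was 1.02 (standard error 0.15, adjusted p = 0.0014 from limma). It missed the fold threshold with 0.95 when array medians were made equal, and with 0.91 without LH4 replicate 1, 0.997 without LH4 replicate 2 and 0.98 without LHR+ replicate 1. At LH1 it was -0.23 (adjusted p = 0.894 from limma) and at LH20 0.72 (adjusted p = 0.00446 from limma), under the fold threshold. The dimmer NAB2 probe set, at 26.7 in LHR+ cells, had a difference of 1.01 at LH4 (standard error 0.58), with overlapping triplicates and no call. NAB1, the other corepressor, was at 3867 ± 171 (SD, n = 3) in LHR+ cells and 5907 ± 268 at LH20. Its LH20 difference of 0.61 (standard error 0.08) had an adjusted p of 8.23e-05 from limma and stayed below the fold threshold, and that at LH1 was -0.01 (adjusted p = 0.999 from limma). SRF, the CArG box factor, was at 1700 ± 252 (SD, n = 3) in LHR+ cells and 2123 ± 140 at LH1, a log2 difference of 0.33 (adjusted p = 0.564 from limma). It was 1355 ± 42.3 at LH20, a difference of -0.32 (adjusted p = 0.115 from limma).

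**Figure D4:**
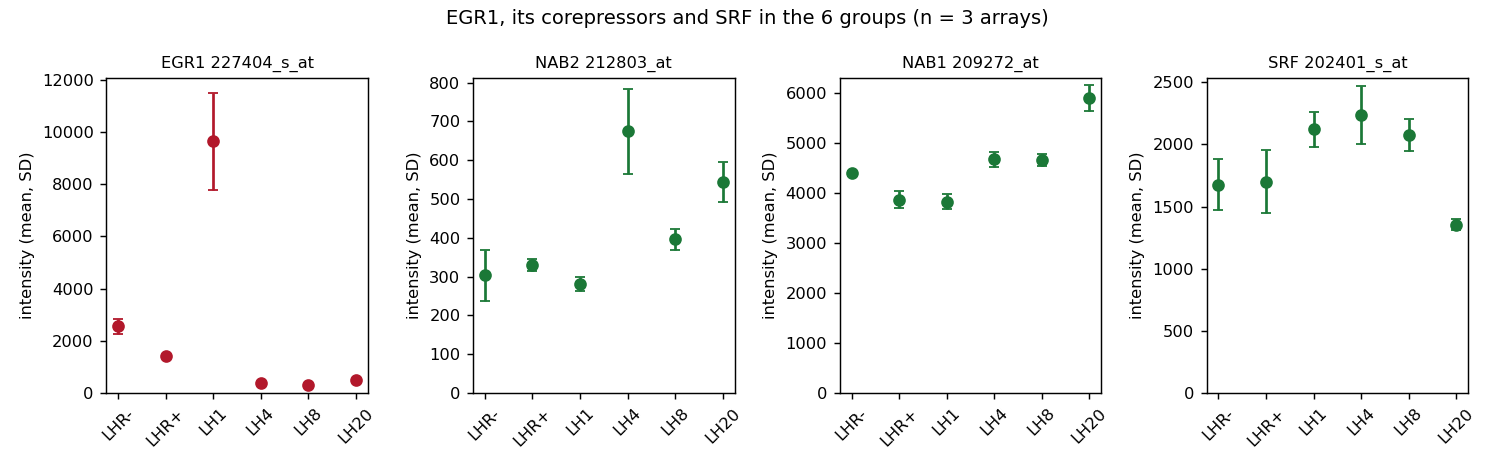
Mean intensity (y axes from 0, differing between panels) of EGR1, NAB2, NAB1 and SRF in the 6 groups on the x axis, with bars for the SD of 3 arrays. The highest mean is at LH1 for EGR1 (9631), at LH4 for NAB2 (674) and at LH20, the last time measured, for NAB1 (5907).

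Of this list, WT1 was the gene called beside NAB2. WT1 encodes a zinc finger factor that can bind EGR sites. Its intensity was 59.4 ± 14.4 (SD, n = 3) in LHR- cells and rose to 155 ± 19.2 in LHR+ cells (log2 1.39, adjusted p = 4.02e-04 from limma) and fell to 49.3 ± 5.15 at LH20 (log2 -1.63, adjusted p = 3.75e-05). As a mean of its probe sets neither change was called (adjusted p = 0.293 and 0.133 from limma). The list thus had 1 gene up and 0 down in LHR+/LHR-, where 2.34% of all 19775 genes were called up and 1.88% down. At LH1 limma called 0 genes (0.288% of all genes up and 0.0303% down), with 1 at an unadjusted p under 0.05 and 0 called with unmoderated variances. At LH4 there was 1 up (all genes, 1.18% up and 0.809% down). At LH8 limma called 0 (all genes, 0.865% up and 0.602% down), with 2 at an unadjusted p under 0.05 and 0 with unmoderated variances. At LH20 there was 1 down (all genes, 3.72% up and 3.74% down). The list's median log2 difference lay between -0.04 and 0.16 over these comparisons, beside medians between -0.012 and -0.0038 for all genes.

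A list of 29 genes reported in general knowledge as EGR targets had calls in both directions. At LH1 limma called 0 of them, with 4 at an unadjusted p under 0.05 and 0 called with unmoderated variances. At LH4 there were 2 up and 2 down (6.90% each way, with 1.18% and 0.809% of all genes). At LH8 there was 1 up and 0 down (3.45% up, with 0.865% and 0.602% of all genes up and down). At LH20 there were 2 up and 2 down (6.90% each way, with 3.72% and 3.74% of all genes). PTGES, the inducible prostaglandin E synthase, was up-regulated at each of these later times on its brightest probe set. It was at 63.2 ± 5.58 (SD, n = 3) in LHR+ cells, 312 ± 52.8 at LH4, 473 ± 96.5 at LH8 and 518 ± 51.5 at LH20. The log2 differences were 2.27 (adjusted p = 1.4e-05), 2.87 (adjusted p = 3.82e-06) and 3.01 (adjusted p = 3.77e-07 from limma). The dimmer PTGES probe set, at 45.5 in LHR+ cells, did not show this rise. Its log2 differences were 0.33, 0.22 and 0.01 at LH4, LH8 and LH20, with overlapping triplicates and no call. The receptor gene IGF1R was up-regulated at LH4 by 1.14 (adjusted p = 7.53e-06 from limma). TNFSF10, the gene of the death ligand TRAIL, rose from 17.6 ± 8.48 (SD, n = 3) to 1521 ± 240 at LH20 (log2 6.47, adjusted p = 1.3e-07 from limma). GADD45A, a gene of the DNA damage response, fell by 1.79 at LH20 (adjusted p = 1.94e-07 from limma). PDGFB, a platelet-derived growth factor gene, was called down at LH4 (-1.22) and LH20 (-1.34), and as a mean of its probe sets at neither. PLAU, the urokinase gene, was at 3942 ± 231 (SD, n = 3) in LHR+ cells and 1964 ± 106 at LH4, a difference of -1.005 (adjusted p = 1.23e-04 from limma) that missed the fold threshold without LHR+ replicate 3 (-0.96), LH4 replicate 2 (-0.97) or LH4 replicate 3 (-0.9988). Between LHR- and LHR+ cells PDGFB was called up (1.03) and TNFSF10 down (-1.95), 3.45% of the list each way, with 2.34% and 1.88% of all genes. The PDGFB call was lost without LHR- replicate 3 (0.99), with a pseudocount of 16 (0.91), equal array medians (0.99) or quantile normalization (0.96). As a mean of its probe sets PDGFB was at 0.65, without a call (adjusted p = 0.162 from limma). The TNFSF10 call was lost in the fit of both groups alone (adjusted p = 0.107 from limma). The median log2 difference of the list was 0.03 at LH1, 0.01 at LH4, 0.09 at LH8 and 0.01 at LH20, and -0.18 for LHR+/LHR-.

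Beside other immediate-early genes, EGR1 and EGR3 were near the top at 1 h. Of 33 such genes outside the family, 13 were called up and 0 down at LH1 (39.4% up, with 0.288% of all genes up and 0.0303% down). Their median log2 difference was 0.64, and that of all genes -0.0085. This list and those above were chosen with earlier results of these data known, so their shares are given as a description. FOSB and FOS, subunits of AP-1, had differences of 5.71 and 3.72 (limma, adjusted p = 2.6e-05 and 0.0066). Their LHR+ means were 9.61 ± 6.22 and 5.76 ± 5.23 (SD, n = 3), near the bottom of the scale. With a pseudocount of 16 the differences were 4.28 and 2.06. FOSB was at 5.08 without LHR+ replicate 3, and FOS at 4.31 without LHR+ replicate 2. The FOS call was lost in the fit of LHR+ and LH1 arrays alone (adjusted p = 0.147 from limma). CCN2, a matricellular protein gene, was at 3.19 (adjusted p = 7.87e-09 from limma). EGR1, with 3.02 and 2.75 on its brighter probe sets, and EGR3, with 2.56, lay near the nuclear receptor gene NR4A2 (2.77) and the phosphatase gene DUSP5 (2.39). At LH4, where EGR1 was at -1.89 (227404_s_at), NR4A3, FOSB and NR4A2 were among the genes called up (4.70, 4.16 and 3.76, with adjusted p = 6.87e-08, 1.24e-04 and 2.12e-07 from limma). At LH8, where EGR1 was at -2.22, NR4A3 was at 2.22, FOSB at 2.01 and NR4A2 at 1.84. Without the other groups in the fit, the FOSB call at LH8 was lost (adjusted p = 0.258 from limma). At LH20, where EGR1 was at -1.45, NR4A2 was at 2.69, FOSB at 2.53 and ID1, an inhibitor of helix-loop-helix factors, at 2.24. Without LHR+ replicate 3, FOSB was at 3.52, 1.38 and 1.90 at LH4, LH8 and LH20. The NR4A3 values are those of its brightest probe set, and its dimmer probe sets differed from each other. A probe set called up at LH1 with 3.18 was at 0.60, 0.11 and 0.13 at LH4, LH8 and LH20. Its triplicates overlapped those of LHR+ cells at these later times. Another, with an LHR+ mean of only 3.35, was at 5.19, 2.17 and 1.82, called at LH4 and LH20.

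Some immediate-early genes were, like EGR1, lower than in LHR+ cells at later times. FOSL1, another AP-1 subunit, fell by 1.73 at LH4, 1.76 at LH8 and 3.01 at LH20 (adjusted p = 1.87e-09 at LH20 from limma). KLF4, a Krüppel-like factor gene, fell by 2.49 at LH20 and CCN1, called up at LH1 with 1.51, fell by 2.06 (adjusted p = 2.47e-08 and 4.34e-07 from limma). The list had 11 genes up and 1 down at LH4 (33.3% and 3.03%, with 1.18% and 0.809% of all genes). At LH8 it had 4 up and 1 down (12.1% and 3.03%, with 0.865% and 0.602% of all genes), and at LH20 8 up and 4 down (24.2% and 12.1%, with 3.72% and 3.74% of all genes). The medians at these times were 0.64, 0.20 and 0.41. Between LHR- and LHR+ cells 0 were called up and 3 down (9.09% down, with 2.34% of all genes up and 1.88% down), with a median of -0.17. These were HES1 (-2.02, adjusted p = 6.95e-06), CCN2 (-1.57, adjusted p = 2.48e-06) and KLF2 (-1.06, adjusted p = 0.00126 from limma). KLF2 missed the fold threshold without LHR- replicate 3 (-0.96), without LHR+ replicate 3 (-0.92) and with a pseudocount of 16 (-0.98). As a mean of its probe sets KLF2 was at -0.50, without a call (adjusted p = 0.409 from limma). EGR1 was also lower in LHR+ cells, and all of these comparisons rest on the same LHR+ arrays.

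**Figure D5:**
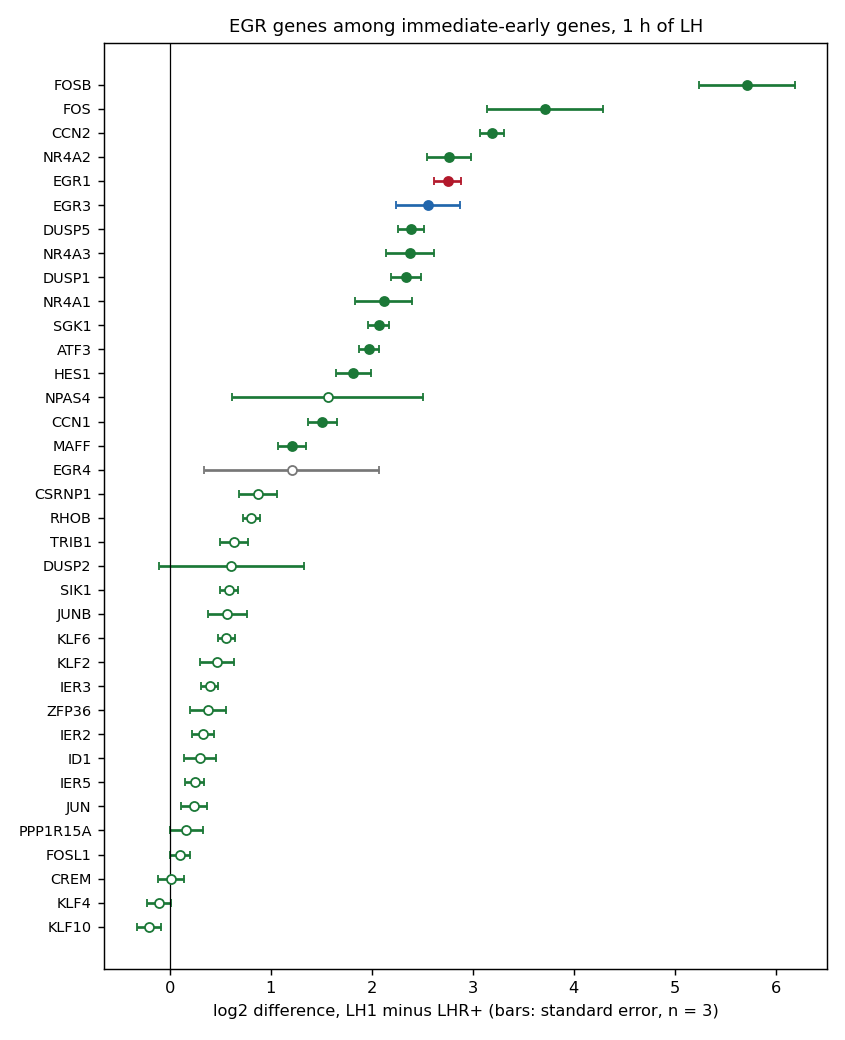
Log2 difference between LH1 and LHR+ cells (x axis) of the 33 other immediate-early genes (green) and of EGR1 (red, 227404_s_at), EGR3 (blue) and EGR4 (grey, 231575_at), each gene by its brightest probe set, on the y axis. Bars are standard errors, n = 3 arrays per group, and filled points met the call rule. EGR1 at 2.75 and EGR3 at 2.56 lie between NR4A2 and DUSP5.

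The genes whose course over the 18 arrays was most like that of each EGR gene were sought among 9886 genes brighter than the median gene, by Pearson correlation. For EGR1 (227404_s_at) these were ERRFI1 (0.92), PLPBP (0.89), NPTN-IT1 (0.87), IER2 (0.86) and PXN (0.85). ERRFI1 encodes a feedback inhibitor of the EGF receptor and PXN the focal adhesion protein paxillin. Their changes were far smaller than those of EGR1, with 0.31 at LH1 and -0.65 at LH8 for ERRFI1. For EGR3 they were KLF6 (0.88), DUSP1 (0.87), ATF3 (0.85), LINC00472 (0.84) and SPRY2 (0.83). DUSP1 encodes a phosphatase of MAP kinases, and SPRY2 an inhibitor of receptor tyrosine kinase signals. At LH1 the log2 difference was 2.34 for DUSP1, 1.97 for ATF3, 1.53 for SPRY2 and 0.56 for KLF6, beside 2.56 for EGR3. For EGR4 (231575_at) the highest were lower, with CHPF (0.74), ITSN1 (0.71), DAD1 (0.71), ITCH (0.67) and SMAD7 (0.67). This probe set was dim, with 47.2, 28.9 and 3.43 on the LHR+ arrays, and the EGR4 probe sets correlated with each other by only 0.214 to 0.379. No likeness to EGR4 is therefore read from these 5 genes. ITCH, a ubiquitin ligase gene, is also in the list of EGR targets. The arrays are not independent points, as they fall into 6 groups, and for EGR3 only the 3 LH1 arrays stood apart from the rest. By Spearman correlation, 2 of the 5 genes for EGR1, 0 for EGR3 and 1 for EGR4 were again among the 5 highest.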

How the data were processed

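RNA of 18 SKOV-3 cultures was amplified as cDNA and hybridized by the authors to Affymetrix U133 Plus 2.0 arrays. The deposited values are linear probe set intensities, 1 column per array. For their summarization the labels name PLIER, while the paper names RMA. Scaling, versions and background settings of that step are not given in the sources used here, and raw probe data were not used. Groups came from the sample labels.

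The deposited intensities were put on the log2 scale after adding 1, with no filter and no added normalization, after 62 control probe sets had been left out. The pseudocount of 1 understates changes of dim probe sets. One mean per group was fitted to all 54613 probe sets with limma 3.58.1 (lmFit, eBayes, 12 residual and 1.37 prior degrees of freedom) in R 4.3.3 with the package data.table (version 1.17.8), and p was adjusted by Benjamini-Hochberg over all probe sets. The thresholds of a call follow the paper, and limma took the place of its tests. A rank test of 3 arrays against 3 cannot give an exact two-sided p below 0.1, and unmoderated variances, as in an ANOVA, were an alternative. The p-values rest on the spread between the 3 cultures of a group, pooled over all 6 groups. The number of 3 cultures per group limits the precision. Symbols were those of the platform annotation, updated through the gene identifiers of GRCh38.p14. Of the probe sets, 41091 carry 1 symbol, 1801 several and 11721 none. A gene outside the family was represented by its brightest probe set that lists its symbol alone.

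The members and gene lists were chosen with earlier results of these data known. Named were all EGR probe sets, LHCGR, NAB1, NAB2, SRF, up to 3 called genes with the largest rise and 3 with the largest fall per list and comparison, and the 5 genes most like each EGR gene. NR4A2 and DUSP5 at LH1 were named for their place beside EGR1 and EGR3. The lists had 15 regulators and corepressors, 34 EGR targets and 35 immediate-early genes. Of these, 14, 29 and 33 were analysed, and some genes are not reported here. Promoter windows came from RefSeq, matched by symbol for EGR1 and EGR4. Alternatives were other pseudocounts, normalizations, filters, variance models, gene summaries and fits, and leaving out each replicate. In simulated data for LH1/LHR+ with 54613 probe sets, 20 of 50 altered probe sets were recovered at a fold of 2, 47 at 3, 48 at 5 and 50 at 10, and 15 of 54413 unaltered ones were called. The altered ones were drawn only from probe sets brighter than the median in LHR+ cells. Recovery was therefore not measured for dim ones such as those of EGR3 and EGR4. Plotting used Python 3.11.15 and matplotlib 3.10.9.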

Additional observations from a re-analysis of the deposited data

Results flagged for a closer look

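For several genes, all 3 arrays lay above all LHR+ arrays at 1 LH time and all 3 below them at another. Such separation in 1 comparison, in either direction, was frequent among all 19775 genes. It was seen in 13% of them at LH1, 27.1% at LH4, 26% at LH8 and 43.1% at LH20. The genes and times were selected for these opposite signs, so the difference between the times was not tested, and in several cases only 1 of the directions had been called. EGR1 had log2 differences of 3.02 at LH1 and -2.42 at LH8 on 201694_s_at, and of 2.75 and -2.22 on 227404_s_at. NAB2 was at 1.02 at LH4, a call, and at -0.23 at LH1, where it was not called. SRF was at 0.40 at LH4 and -0.32 at LH20, without a call at either. WT1 was at 0.25 at LH4, without a call, and at -1.63 at LH20, a call. DUSP5 was called up at LH1 with 2.39 and was at -0.73 at LH20 without a call. CCN1 was called at both times, with 1.51 at LH1 and -2.06 at LH20.

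Of the genes selected for their likeness to EGR1 or EGR3, ERRFI1 was at 0.31 at LH1 and -0.73 at LH20. NPTN-IT1 was at 0.755 at LH1 and -0.35 at LH8. IER2 was at 0.33 at LH1 and -0.38 at LH4, and KLF6 at 0.56 and -0.12 at these times. LINC00472 was at 1.53 at LH1 and -0.62 at LH8, and SPRY2 at 1.53 and -0.54.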

How the results depend on the processing

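No difference named for an EGR probe set or a list gene changed its direction where it had been called. With only the compared groups in the fit, 2 EGR probe sets in place of 4 met the call rule at LH1, and 173 probe sets of the array in place of 263. At LH8 that fit called 489 in place of 831. With no fold threshold, 5668, 430, 3267, 3134 and 12549 probe sets were called in LHR+/LHR-, LH1, LH4, LH8 and LH20. The immediate-early genes called were then 11, 21, 14 and 23 in LHR+/LHR-, LH4, LH8 and LH20, the regulators 2, 2, 1 and 5, and the EGR targets 6, 6 and 13 in LHR+/LHR-, LH8 and LH20. With a pseudocount of 16, the probe sets called were 1102, 650, 408 and 2405 in LHR+/LHR-, LH4, LH8 and LH20, and among probe sets above the median mean 1036, 667, 459 and 2458, where fewer were tested. The regulators called at LH4 were 0 with the pseudocount of 16 and with equal array medians, and 0 to 1 when a replicate was left out. As means of all probe sets of a gene, 0 regulators were called in LHR+/LHR- and at LH20, and 1, 1, 2 and 2 EGR targets in LHR+/LHR-, LH1, LH4 and LH8. The EGR targets called in LHR+/LHR- were also 1 with the pseudocount of 16, equal array medians, quantile normalization and the compared groups alone, and 1 to 2 without a replicate. Genes shared with the ranking by likeness numbered 2, 0 and 1 for EGR1, EGR3 and EGR4 with Spearman correlation. As the mean of its 3 probe sets, EGR1 was at -1.31, 3.87, -1.31, -1.83 and -0.88 in LHR+/LHR-, LH1, LH4, LH8 and LH20.

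Of 45 pairs of arrays with the same replicate number, 13 had a correlation of their deviations from the group means over 0.1 (range -0.20 to 0.218, median 0.023). Arrays with different numbers were not compared in this way, so these values do not decide whether the numbers pair the arrays. With the replicate block, 1822, 248, 1014, 839 and 3850 probe sets were called in the same order of comparisons, and the number of EGR probe sets that met the rule was 4 at LH1 and 2 at LH8, as without it. Dim probe sets limit what can be seen, since values under 16 made up 31.0% to 34.5% of each array.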
